A study of Mus musculus with 29 samples.

Results

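The genes that recover heme and iron from engulfed red blood cells were examined in splenic and hepatic macrophages of Rnaset2-/- mice and of their wild-type controls. The set was chosen by symbol, with earlier results of these data known, and holds 10 genes: Hmox1, Slc40a1, Cd163, Tfrc, Fth1, Ftl1, Slc11a1, Slc48a1, Blvra and Blvrb. Of these, 9 were found among the 23930 genes of the deposited table, and Ftl1 was not analysed here beyond its sequence. The 29 RNA-seq libraries fall into 9 groups: splenic Ly6Chi and Ly6Clow macrophages of each genotype (3 libraries each, and 4 of Rnaset2-/- Ly6Clow), hepatic Ly6Chi and Ly6Clow macrophages of each genotype (3 each) and Kupffer cells (KCs) from wild-type mice (4). Rnaset2-/- mice lack RNase T2, the lysosomal enzyme that degrades RNA, in every cell, since both mouse genes for it (Rnaset2a and Rnaset2b) are disrupted. Wild-type mice were C57BL/6 of both sexes, no group had a treatment, and the sex of single samples and the age of the mice are not given in the sources used here. The labels give Ly6Chi and Ly6Clow cells of both organs as CD11b+ and negative for Ly6G, SiglecF and NK1.1, with Fcgr4 added for Ly6Clow cells, and the study's methods add F4/80 for the hepatic cells and a depletion of T, B, NK, erythroid and Ly6G+ cells for the splenic ones. KCs are labelled as F4/80+ with intermediate CD11b and as positive for Tim4, the product of Timd4, so their Timd4 level is set by the gate. No label says that replicate libraries came from separate animals, so p-values measure the spread between these libraries only.

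Macrophages of the splenic red pulp and KCs of the liver clear aged red blood cells. The study lists red pulp macrophages apart from splenic Ly6Chi and Ly6Clow cells, and no group here is labelled as red pulp macrophages. Its methods call the sorted splenic cells monocytes. Heme set free in the phagolysosome is carried into the cytosol by HRG1 (Slc48a1), opened by heme oxygenase 1 (Hmox1) and reduced by the biliverdin reductases (Blvra and Blvrb), while the iron leaves the phagosome in part through NRAMP1 (Slc11a1). Free iron is then stored in ferritin (Fth1 and Ftl1) or exported by ferroportin (Slc40a1), the only known iron exporter of mammalian cells. Cd163 brings in hemoglobin bound to haptoglobin, and the transferrin receptor (Tfrc) brings in iron bound to transferrin.

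Part of this set is also controlled after transcription, through the iron-responsive element (IRE), a short hairpin in the mRNA that binds the iron regulatory proteins IRP1 (Aco1) and IRP2 (Ireb2) when iron is scarce. In the 5′ untranslated region (UTR) the bound protein blocks translation, and in the 3′ UTR it protects the mRNA from decay, so the mRNA level of a gene with a 5′ element does not give its protein level. The hairpins are shown because they mark the genes of this set whose mRNA holds a match to the element. They were searched in the GENCODE transcripts (vM21, GRCm38, the assembly also called mm10) as a C, a stem strand of 5 bases, the loop CAGTGN and 5 bases that pair with the first strand, with G-T pairs allowed. Each sequence of 29 bases runs 5′ to 3′ in the sense of the mRNA, with the loop in capitals:
Fth1, 5′ UTR, chr19:9982732-9982760, plus strand: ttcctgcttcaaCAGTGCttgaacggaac
Ftl1, 5′ UTR, chr7:45459779-45459807, minus strand: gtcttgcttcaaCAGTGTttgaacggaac
Slc40a1, 5′ UTR, chr1:45925465-45925493, minus strand: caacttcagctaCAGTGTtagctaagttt
Tfrc, 3′ UTR, chr16:32631219-32631247, plus strand: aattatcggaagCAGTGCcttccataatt
Tfrc, 3′ UTR, chr16:32631598-32631626, plus strand: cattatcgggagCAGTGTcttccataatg
Tfrc, 3′ UTR, chr16:32631663-32631691, plus strand: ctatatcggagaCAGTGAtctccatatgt
Tfrc, 3′ UTR, chr16:32631710-32631738, plus strand: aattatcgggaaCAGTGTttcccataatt
The pattern was found in the 5′ UTR of 3 of the 10 genes and in the 3′ UTR of 1, Tfrc, which held 4 copies. Over all annotated genes, 0.151% of 20580 with a 5′ UTR and 0.615% of 20962 with a 3′ UTR held it. A match to these letters is a description and not a measured binding site. Hmox1, Cd163, Slc11a1, Slc48a1, Blvra and Blvrb had no match in either UTR. Slc11a2, a gene of the wider list below, was searched in the same way and had no match. The pattern is strict, so the lack of a match does not show that a gene has no element.

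The libraries held 11175843 to 21167602 reads (median 13027220), so that 3 reads, taken as the floor, correspond to 0.142 to 0.268 RPM (reads scaled to a common library total). The splenic Ly6Chi Rnaset2-/- libraries were the deepest, at 20404155 to 21167602 reads, against 14280906 to 14415756 in their wild-type controls. Depth thus moved with genotype in that comparison, and its part was not tested. General macrophage and monocyte markers such as Csf1r and Lyz2 were present in every group, and the 10 genes of that list summed to 5065 to 36480 RPM. The KC markers Clec4f, Timd4, Vsig4, Cd5l and Marco summed to 15160 to 17140 RPM in 3 KC libraries and to 5302 RPM in replicate 3, which also held 5169 RPM of hepatocyte markers against 1522 to 1698 RPM in the other 3. Among splenic Rnaset2-/- Ly6Clow libraries, replicates 1 and 2 stood apart by 43080 and 24040 RPM of neutrophil markers (3621 to 4595 RPM in the other 2) and by 991 and 245 RPM of erythroid markers, and replicate 2 alone had Xist at 0.781 RPM and Y-linked genes at 301 RPM. In the liver, all 6 Rnaset2-/- libraries had Xist at no more than 0.154 RPM and Y-linked genes at 150 to 291 RPM, whereas all 6 wild-type Ly6Chi and Ly6Clow libraries had Xist at 321 to 539 RPM, with Y-linked genes at 0 RPM in replicate 1 and at 28.9 to 52.0 RPM in replicates 2 and 3 of both subsets. KC libraries had Xist at 647 to 949 RPM and Y-linked genes at 0 RPM. Genotype and the share of male and female cells cannot be told apart in the liver. Immediate early genes, which are readily induced while cells are being isolated, summed to 26390 to 38620 RPM in wild-type hepatic Ly6Chi and Ly6Clow libraries and to 1380 to 8105 RPM in those from Rnaset2-/- mice. Erythroid markers in the same libraries summed to 0.463 to 5.84 RPM and 58.0 to 266 RPM, and sinusoidal endothelial markers to 73.2 to 374 RPM and 343 to 4058 RPM (2625 to 5140 RPM in KCs). These values move with genotype in hepatic Ly6Chi and Ly6Clow cells. Wild-type KCs had 1927 to 3242 RPM of immediate early genes and 54.4 to 225 RPM of erythroid markers, nearer to the Rnaset2-/- libraries. The same features thus also differ between KCs and wild-type hepatic Ly6Clow cells. Their part in the results below was not tested. In bulk samples such as these, fewer cells of a type and less RNA per cell cannot be told apart.

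Differences between groups were tested with limma on log2(scaled RPM + 1), and a gene was called at more than 1.5-fold with a Benjamini-Hochberg adjusted p below 0.05 over all tested genes. Here a gene is said to have risen or fallen if it was called. Of the 9 genes found, 8 could be tested in each comparison and Fth1 in none. With RNase T2 deficiency, 6 of 8 changed in hepatic Ly6Clow macrophages (5 rose, 1 fell), where 42.7% of all 10808 tested genes were called, 20.2% as higher and 22.5% as lower. In splenic Ly6Clow macrophages 4 of 8 changed (3 rose, 1 fell) against 8.35% of 10295 genes (4.05% higher and 4.3% lower). In hepatic Ly6Chi macrophages 2 of 8 changed (1 rose, 1 fell) against 30.6% of 10957 genes (15.7% higher and 14.9% lower), and in splenic Ly6Chi macrophages 1 of 8 fell against 22.2% of 10398 genes (9.77% higher and 12.5% lower), both at or below the share over all genes. The median log2 fold change of the 8 genes was 1.31 in hepatic and 0.69 in splenic Ly6Clow macrophages and -0.03 and 0.07 in the Ly6Chi subsets, with medians over all tested genes of 0.01 in each of the 4 comparisons. Without splenic Ly6Clow Rnaset2-/- replicate 1 or 2 the count there stayed at 4, and without any 1 of the 3 wild-type libraries it was 2, as Hmox1 and Blvra were then no longer called.

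**Figure D1:**
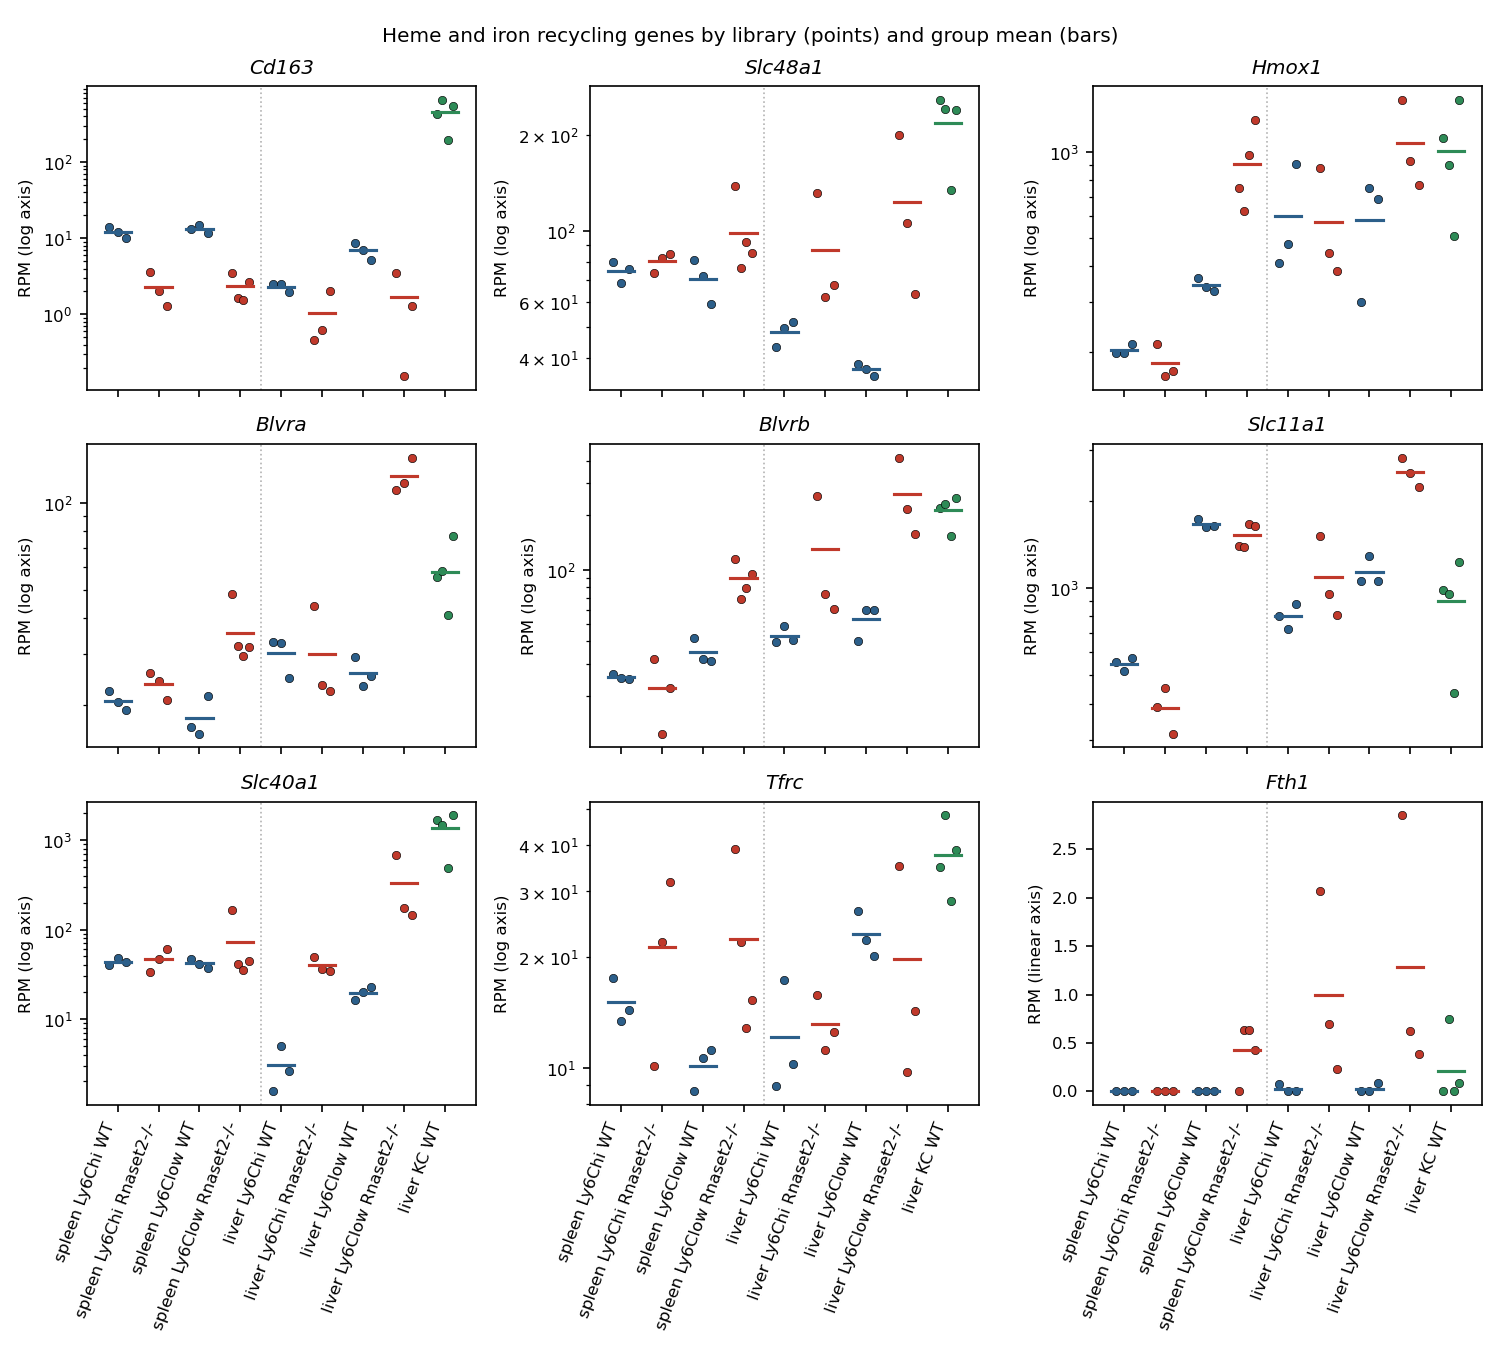
RPM of the 9 genes found, in each of the 29 libraries (points, with group means as bars), for wild-type (blue), Rnaset2-/- (red) and KC (green) groups of spleen and liver. The vertical axes are logarithmic except for Fth1. Cd163 is 198 RPM or more in KCs and 15.0 RPM or less in every other library, and Slc40a1 ranges from 1.54 to 1886 RPM.

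Cd163, the scavenger receptor for hemoglobin and haptoglobin, fell in Rnaset2-/- macrophages of both organs and both subsets. Its level in splenic Ly6Chi macrophages was 14.2, 12.1 and 9.94 RPM in wild-type and 3.59, 2.01 and 1.28 RPM in Rnaset2-/- libraries. Every Rnaset2-/- library lay below every wild-type library, and the log2 fold change was -1.94 (SE 0.25, adjusted p = 0.000263). In splenic Ly6Clow macrophages the level was 13.1, 15.0 and 11.9 RPM in wild-type and 3.48, 1.63, 1.56 and 2.68 RPM in Rnaset2-/- libraries, again without overlap, with a log2 fold change of -2.13 (SE 0.24, adjusted p = 0.00202). Both splenic changes held under each of the alternatives tried. Other markers moved with genotype in the splenic Ly6Chi libraries. Erythroid markers summed to 111 to 115 RPM in wild-type and 3.54 to 11.3 RPM in Rnaset2-/- libraries, and NK cell markers to 370.1 to 413 RPM and 14.5 to 43.1 RPM. T cell markers fell as well (4 of 4). Neutrophil markers rose (8 of 12), at 31960 to 34250 RPM and 34950 to 60770 RPM, as did 7 of 7 proliferation markers. Immediate early genes fell (8 of 12), at 16640 to 16740 RPM and 8507 to 11630 RPM. The part of these differences in Cd163 and in the other changes of splenic Ly6Chi cells was not tested.

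In hepatic macrophages Cd163 was already low in wild-type mice. Hepatic Ly6Clow libraries had 8.61, 6.97 and 5.19 RPM in wild-type and 3.54, 0.156 and 1.30 RPM in Rnaset2-/- mice, of which 0.156 RPM is 2 reads and below the floor. The log2 fold change was -1.78 (SE 0.47, adjusted p = 0.0152), and the call was lost without wild-type replicate 1 or 2 and in edgeR, with adjusted p up to 0.0637. The hepatic Ly6Chi libraries had 2.47, 2.50 and 1.97 RPM in wild-type and 0.461, 0.618 and 2.0 RPM in Rnaset2-/- mice, so the groups overlapped. The difference there (log2 fold change -0.98, SE 0.31, adjusted p = 0.0445) rests on 84 and 40 reads in all, and it was lost in 12 of the 14 alternatives, with adjusted p up to 0.155. Among wild-type cells, Cd163 was higher in hepatic Ly6Clow than Ly6Chi macrophages by 1.15 on the log2 scale (SE 0.25, adjusted p = 0.0207), a call lost in 5 of 14 alternatives with adjusted p up to 0.102, and in the spleen the same difference was 0.27 (SE 0.16, adjusted p = 0.182).

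Slc48a1, which encodes the heme transporter of the phagolysosome, rose in hepatic Rnaset2-/- Ly6Clow macrophages and was not called between genotypes elsewhere. In hepatic Ly6Clow cells it was 38.3, 37.0 and 35.2 RPM in wild-type and 199.7, 106 and 63.4 RPM in Rnaset2-/- libraries. The groups did not overlap, although the Rnaset2-/- libraries differed widely among themselves, and the log2 fold change was 1.52 (SE 0.35, adjusted p = 0.00913). The call held in all 14 alternatives. In hepatic Ly6Chi cells the level was 43.4, 49.6 and 51.8 RPM in wild-type and 131, 62.1 and 67.5 RPM in Rnaset2-/- mice. The log2 fold change of 0.44 (SE 0.33, adjusted p = 0.339) dropped to 0.05 without Rnaset2-/- replicate 1. Within its group that library was highest in erythroid (266 RPM), KC (412 RPM), T cell (246 RPM) and macrophage markers (32140 RPM). It was lowest in sinusoidal endothelial markers (343 RPM). The part of these differences was not tested. The splenic differences were 0.21 (SE 0.10, adjusted p = 0.133) in Ly6Chi and 0.45 (SE 0.19, adjusted p = 0.162) in Ly6Clow cells.

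Hmox1, the rate-limiting enzyme of heme breakdown, rose in splenic Ly6Clow macrophages of Rnaset2-/- mice. It was 362, 338 and 328 RPM in wild-type libraries and 753, 622, 978 and 1295 RPM in Rnaset2-/- libraries. All 4 Rnaset2-/- libraries were above all 3 of the wild type, and the log2 fold change was 1.36 (SE 0.25, adjusted p = 0.0168). It was 1.47 (adjusted p = 0.00610) without replicate 1 and 1.54 (adjusted p = 0.0141) without replicate 2, the pair with many neutrophil transcripts, and adjusted p reached 0.0872 when a wild-type library was left out.

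Markers of other cells also moved with genotype in splenic Ly6Clow macrophages. NK cell markers summed to 60.6 to 101 RPM in wild-type and 4.3 to 28.7 RPM in Rnaset2-/- libraries, and 4 of 4 fell. Sinusoidal endothelial markers summed to 267 to 325 RPM and 1459 to 2200 RPM, of which Pecam1, an adhesion molecule that leukocytes carry as well, made up 266 to 324 RPM and 1456 to 2195 RPM. The defining endothelial genes Cdh5, Stab2 and Clec4g were at no more than 0.634 RPM in any of the 7 libraries, with Stab2 at 0 in all 4 from Rnaset2-/- mice. The part of these differences in the changes of Hmox1, Cd163, Blvra and Blvrb was not tested.

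In splenic Ly6Chi macrophages Hmox1 was 198, 198 and 213 RPM in wild-type and 213, 165 and 171 RPM in Rnaset2-/- libraries, which overlapped (log2 fold change -0.04, 95% CI -0.27 to 0.19). In the liver its spread between replicates was wide: 299, 748 and 688 RPM in wild-type Ly6Clow and 1528, 930 and 770 RPM in Rnaset2-/- Ly6Clow libraries. All 3 Rnaset2-/- libraries were the higher ones, but the log2 fold change of 0.90 (SE 0.40, 95% CI -0.02 to 1.82, adjusted p = 0.101) did not pass. Hepatic Ly6Chi libraries had 409, 477 and 911 RPM in wild-type and 884, 444 and 384 RPM in Rnaset2-/- mice, with no direction shared by the libraries (log2 fold change -0.40, SE 0.44, adjusted p = 0.526).

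Blvra and Blvrb, which reduce biliverdin after heme is opened, rose together in both Ly6Clow subsets. Blvra encodes the main adult enzyme for biliverdin IXalpha, and the product of Blvrb also acts as a flavin reductase. In hepatic Ly6Clow macrophages, Blvra was 29.2, 23.1 and 25.1 RPM in wild-type and 110.5, 118 and 144 RPM in Rnaset2-/- libraries. This was the tightest of the hepatic differences, with a log2 fold change of 2.18 (SE 0.18, adjusted p = 7.44e-05), and every alternative kept the call. Blvrb in the same cells was 40.0, 59.4 and 60.0 RPM in wild-type and 417, 217 and 157 RPM in Rnaset2-/- libraries, without overlap (log2 fold change 2.15, SE 0.35, adjusted p = 0.00175).

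In splenic Ly6Clow macrophages, Blvrb was 41.6, 31.8 and 31.3 RPM in wild-type and 115, 69.0, 78.9 and 94.5 RPM in Rnaset2-/- libraries. The log2 fold change was 1.32 (SE 0.18, adjusted p = 0.00557), again with no overlap and with the call kept in all 15 alternatives. Blvra was 16.7, 15.9 and 21.4 RPM in wild-type and 48.4, 31.9, 29.4 and 31.7 RPM in Rnaset2-/- libraries (log2 fold change 0.93, SE 0.19, adjusted p = 0.0212), with the highest value in replicate 1. Without that library the log2 fold change was 0.80 and still passed (adjusted p = 0.0123), but with the replicate number as a block, and without any 1 wild-type library, the call was lost, with adjusted p up to 0.0950.

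In the Ly6Chi subsets neither reductase was called. Blvrb in hepatic Ly6Chi cells was 39.8, 48.9 and 40.5 RPM in wild-type and 256, 73.3 and 60.4 RPM in Rnaset2-/- libraries. All 3 Rnaset2-/- libraries were higher, and 1 of them far more so, which gave a log2 fold change of 0.95 (SE 0.54, adjusted p = 0.211). Without that library, replicate 1, it was 0.25 (adjusted p = 0.312), while DESeq2 and a single fit of all libraries called it. Blvra in hepatic Ly6Chi cells had a log2 fold change of -0.38 (SE 0.33, adjusted p = 0.410), and it was called as lower without the same replicate 1 (-0.74, adjusted p = 0.0152). Splenic Ly6Chi cells gave 0.29 (SE 0.14, adjusted p = 0.120) for Blvra and -0.17 (SE 0.25, adjusted p = 0.625) for Blvrb.

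Slc11a1 encodes NRAMP1, which pumps iron and other divalent metals out of the phagosome, and C57BL/6 mice carry a loss-of-function allele of it, so its mRNA level does not stand for transport. It rose in hepatic Rnaset2-/- Ly6Clow macrophages, from 1061, 1289 and 1054 RPM in wild-type to 2814, 2491 and 2228 RPM in Rnaset2-/- libraries. The log2 fold change was 1.10 (SE 0.20, adjusted p = 0.00289), with no overlap and the call kept in all 14 alternatives. In splenic Ly6Clow macrophages the groups overlapped, at 1727, 1620 and 1642 RPM in wild-type and 1391, 1385, 1662 and 1636 RPM in Rnaset2-/- libraries (log2 fold change -0.13, 95% CI -0.47 to 0.21).

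In splenic Ly6Chi macrophages Slc11a1 was 555, 516 and 576 RPM in wild-type and 388, 453 and 315 RPM in Rnaset2-/- libraries. All 3 Rnaset2-/- libraries were lower, but the log2 fold change of -0.41 (SE 0.14, adjusted p = 0.0384) stayed under the 1.5-fold threshold. In hepatic Ly6Chi macrophages it was 0.08 (SE 0.31, adjusted p = 0.867). Slc11a1 also marked the Ly6Clow subset of the wild-type spleen, where it was higher than in Ly6Chi cells by 1.75 on the log2 scale (SE 0.07, adjusted p = 5.88e-08). In that comparison 2 of the 8 genes were called against 33.6% of 10521 genes (13.8% higher and 19.8% lower), the other being Hmox1 (0.90, SE 0.08, adjusted p = 4.97e-06), whose call was lost in a single fit of all libraries (adjusted p = 0.133). Blvrb (0.57, SE 0.13, adjusted p = 0.00386) lay just under the 1.5-fold threshold there and was called in 7 of 14 alternatives.

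Slc40a1, the iron exporter ferroportin, had the widest range of the set and rose in both hepatic subsets of Rnaset2-/- mice. In hepatic Ly6Clow macrophages it was 16.3, 19.96 and 22.7 RPM in wild-type and 678, 175 and 146 RPM in Rnaset2-/- libraries. Every Rnaset2-/- library was above the wild type, replicate 1 by far the most, and the log2 fold change was 3.63 (SE 0.51, adjusted p = 0.000945). Without replicate 1 it was 2.95 (SE 0.21, adjusted p = 1.59e-05). In hepatic Ly6Chi macrophages it was 1.54, 5.01 and 2.59 RPM in wild-type and 49.1, 36.5 and 34.8 RPM in Rnaset2-/- libraries, with no overlap and a log2 fold change of 3.15 (SE 0.35, adjusted p = 0.000990). Both calls held in all alternatives.

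KC markers rose in the same hepatic cells. Their sum was 1.97 to 2.55 RPM in wild-type and 167 to 412 RPM in Rnaset2-/- Ly6Chi libraries, and 75.1 to 108 RPM and 5663 to 10750 RPM in Ly6Clow libraries, highest in the Rnaset2-/- replicate 1 that was also highest in Slc40a1. In Rnaset2-/- Ly6Clow cells most of this sum was Cd5l, at a mean of 7290 RPM. The means of Marco, Vsig4, Clec4f and Timd4 there were 261, 145, 44.7 and 30.0 RPM. Of the KC markers, 3 of 4 tested rose in Ly6Chi and 4 of 5 in Ly6Clow cells, and none was at 0 in any of the 6 Rnaset2-/- libraries, where the lowest single value was that of Timd4 (0.923 RPM). Their part in the Slc40a1 difference was not tested.

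In the spleen Slc40a1 was not called. Ly6Clow libraries had 47.3, 41.5 and 37.4 RPM in wild-type and 167, 41.4, 35.5 and 44.2 RPM in Rnaset2-/- mice. A single library, replicate 1, lay apart from the other 3, which were within the wild-type range or just below it, and the log2 fold change of 0.46 (SE 0.45, adjusted p = 0.526) became -0.02 without it. That library also had the highest sum of KC markers of its group (450 RPM against 90.7 to 176 RPM). Ly6Chi libraries had 40.6, 48.1 and 42.9 RPM in wild-type and 33.3, 46.8 and 60.9 RPM in Rnaset2-/- mice (log2 fold change 0.18, 95% CI -0.24 to 0.59). Among wild-type cells of the liver, Slc40a1 was higher in Ly6Clow than Ly6Chi macrophages by 2.34 (SE 0.30, adjusted p = 0.00128), where 2 of the 8 genes were called, with Cd163, against 10.1% of 11688 genes (5.24% higher and 4.84% lower). Tfrc (0.80, SE 0.23, adjusted p = 0.0584) was called there in 3 of 14 alternatives, without wild-type Ly6Chi replicate 2 among them.

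Tfrc, the transferrin receptor, was not called between genotypes in any of the 4 subsets. In splenic Ly6Clow macrophages it was 8.67, 10.6 and 11.2 RPM in wild-type and 39.1, 21.9, 12.8 and 15.3 RPM in Rnaset2-/- libraries. The Rnaset2-/- libraries were the higher ones without exception, and the log2 fold change of 0.95 (SE 0.31, adjusted p = 0.0884) did not pass except in DESeq2. In hepatic Ly6Clow macrophages it was 26.6, 22.2 and 20.1 RPM in wild-type and 35.1, 9.80 and 14.2 RPM in Rnaset2-/- libraries, with replicate 1 above and the others below the wild type (log2 fold change -0.43, SE 0.41, adjusted p = 0.421). Without replicate 1 it was called as lower, at -0.92 (adjusted p = 0.0171). The differences in Ly6Chi cells were 0.46 (SE 0.32, adjusted p = 0.283) in the spleen, where the call was made without Rnaset2-/- replicate 1 (0.90, adjusted p = 0.00167), and -0.15 (SE 0.29, adjusted p = 0.724) in the liver. Erythroid precursors also express Tfrc strongly, and erythroid markers were highest in the replicate 1 libraries of both Rnaset2-/- Ly6Clow groups (991 and 159 RPM), whose part in these values was not tested.

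Fth1, the heavy chain of ferritin, is among the more abundant mRNAs of macrophages, yet it was listed at 0 in 16 of 29 libraries and its highest value was 2.85 RPM. The highest values were 2.85, 0.623 and 0.383 RPM in hepatic Rnaset2-/- Ly6Clow and 2.07, 0.695 and 0.231 RPM in hepatic Rnaset2-/- Ly6Chi libraries. Even the shallowest library held 11175843 reads. Whether the assay reads this gene at all cannot be told from the table, so its values are not taken as levels, and the iron store could not be compared between the groups.

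**Figure D2:**
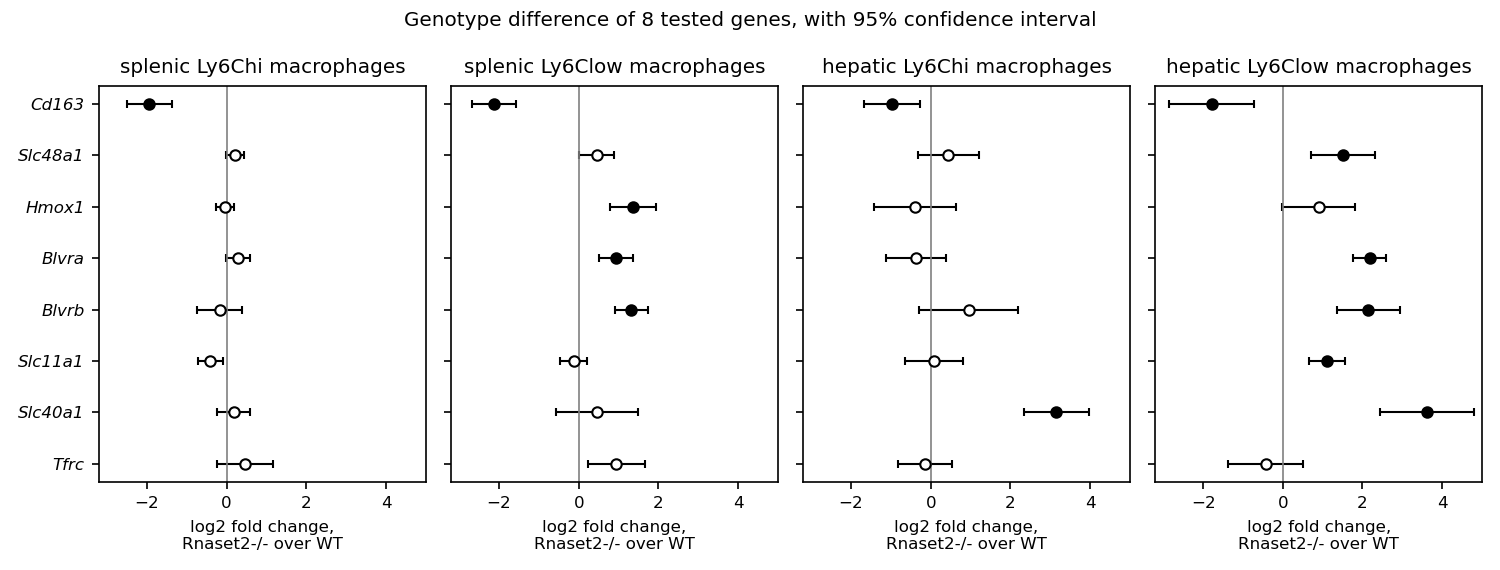
Log2 fold change (Rnaset2-/- over wild-type) of the 8 tested genes with 95% confidence intervals in the 4 macrophage subsets, with filled points for genes called at more than 1.5-fold and adjusted p below 0.05. Points for Slc40a1 lie at 3.15 and 3.63 in the liver and at 0.18 and 0.46 in the spleen, and Cd163 is below 0 in all 4 panels.

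Whether the genotype difference itself differed between liver and spleen was tested as an interaction in each subset. In Ly6Clow macrophages 3 of the 8 genes had a larger difference in the liver, where 26.8% of 11308 genes were called (12.1% with a positive and 14.7% with a negative difference): Slc40a1 by 3.18 on the log2 scale (SE 0.76, adjusted p = 0.00781), Blvra by 1.26 (SE 0.26, adjusted p = 0.00362) and Slc11a1 by 1.24 (SE 0.23, adjusted p = 0.00201). In Ly6Chi macrophages only Slc40a1 was called of the 8 genes, at 3.02 (SE 0.44, adjusted p = 0.000317), where 33.5% of 11398 genes were (17.6% positive and 16.0% negative). Without hepatic Ly6Chi Rnaset2-/- replicate 1, Cd163 (1.11, adjusted p = 0.0416) and Blvra (-1.01, adjusted p = 0.00227) were called as well, and without hepatic Ly6Clow Rnaset2-/- replicate 1 so was Tfrc in Ly6Clow cells (-1.86, adjusted p = 0.00881). Slc48a1 in Ly6Clow cells (1.08, SE 0.42, adjusted p = 0.0729) was called without splenic Rnaset2-/- replicate 1 (1.22, adjusted p = 0.0391), without hepatic Rnaset2-/- replicate 3 and in DESeq2. In Ly6Chi cells Cd163 was called without splenic Rnaset2-/- replicate 1 as well, and Cd163 and Slc11a1 were called without scaling. For Hmox1 in Ly6Clow cells, called in the spleen and not in the liver, the difference between organs was -0.45 (95% CI -1.55 to 0.65, adjusted p = 0.552). For Cd163 it was 0.34 (SE 0.54, adjusted p = 0.684) in Ly6Clow cells. The hepatic side of these tests carries the difference in Xist and Y-linked genes given above.

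Mature KCs set the upper end of the scale for several of these genes. Against wild-type hepatic Ly6Clow macrophages, 5 of the 8 genes differed (4 higher, 1 lower), where 50.0% of 12515 genes were called (26.0% higher and 24.0% lower). KCs had 1677, 1470, 483 and 1886 RPM of Slc40a1 and 432, 658, 198 and 544 RPM of Cd163, with the lowest value of both in replicate 3, the library with fewer KC and more hepatocyte transcripts. The log2 differences were 5.32 (SE 0.41, adjusted p = 2.94e-06) for Slc40a1 and 5.2 (SE 0.35, adjusted p = 1.53e-06) for Cd163. Slc48a1 (1.90, SE 0.23, adjusted p = 5.43e-05) and Blvrb (1.41, SE 0.23, adjusted p = 0.000426) were higher in KCs as well. Slc11a1 was lower (-1.02, SE 0.32, adjusted p = 0.0198), although its libraries overlapped in RPM and the call was lost without scaling, without the filter on low values and without wild-type Ly6Clow replicate 2. Blvra (0.53, SE 0.22, adjusted p = 0.0649) was called as higher in 3 of 15 alternatives, without KC replicate 3 among them. Hmox1 was not called (0.22, SE 0.41, adjusted p = 0.666), and its libraries overlapped. All KC libraries also held more RNA of other cells. Hepatocyte markers summed to 1522 to 5169 RPM in KCs and 96.85 to 180.5 RPM in wild-type Ly6Clow libraries, and 6 of 7 were called higher. So were 5 of 5 sinusoidal endothelial, 3 of 3 B cell, 3 of 3 NK cell and 3 of 4 T cell markers. Their part in these differences was not tested.

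Hepatic Ly6Clow macrophages of Rnaset2-/- mice lay below the KC mean in some of the genes and above it in others. Relative to the KC mean in RPM, they had 0.364% of Cd163 and 24.2% of Slc40a1, 56.5% of Slc48a1 and 52.5% of Tfrc. They had 106% of Hmox1 and 123% of Blvrb, and 215% of Blvra and 279% of Slc11a1. Replicate 1 carried several of these means, and without it Cd163 stood at 0.159%, Slc40a1 at 11.6%, Slc48a1 at 38.8%, Hmox1 at 83.7% and Blvrb at 87.3%, while Blvra (226%) and Slc11a1 (262%) stayed above the KC mean. Tfrc was at 93.5% in replicate 1 and at 26.1% and 37.9% in the other 2 libraries. In wild-type Ly6Clow libraries Slc11a1 was already at 117% to 143% of the KC mean, and Hmox1 was at 29.5% to 73.7%. These shares are of unscaled RPM. After scaling over all libraries, the means in Rnaset2-/- Ly6Clow cells and in KCs were 1132 and 813 for Hmox1 and 276 and 171 for Blvrb. For Slc40a1 they were 350 and 1104, and for Slc48a1 128.6 and 173.5. Scaling thus placed Hmox1 and Blvrb further above KCs, and Slc40a1 and Slc48a1 less far below them. In the test, 4 of the 8 genes differed from KCs, where 45.6% of 12127 genes were called (19.4% higher and 26.3% lower): Cd163 (-7.11, SE 0.53, adjusted p = 2.90e-05) and Slc40a1 (-1.71, SE 0.59, adjusted p = 0.0392) were lower, and Slc11a1 (2.10, SE 0.35, adjusted p = 0.00137) and Blvra (1.64, SE 0.24, adjusted p = 0.000757) were higher. The Slc40a1 groups overlapped, and its call was lost in 7 of 15 alternatives, with adjusted p up to 0.148. Tfrc (-0.56, SE 0.39, adjusted p = 0.258) was called as lower without Rnaset2-/- replicate 1 and without scaling. Hepatocyte markers summed to 18.05 to 120.6 RPM in these Rnaset2-/- libraries and to 1522 to 5169 RPM in KCs. Xist was at 0 RPM in the Rnaset2-/- libraries and at 647 to 949 RPM in KCs. The part of these differences was not tested.

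For Hmox1 the log2 difference from KCs was 0.66 (95% CI -0.20 to 1.52), an interval that allows a higher or a lower level than in KCs. For Blvrb it was 0.73 (95% CI 0.04 to 1.42), an interval on the higher side only, but the adjusted p of 0.0766 did not pass. Blvrb was called as higher in 3 of 15 alternatives and Hmox1 in 1. The KC markers were uneven in the same Rnaset2-/- cells. Cd5l, which encodes the secreted protein AIM, stood at 115% of the KC mean. Clec4f, a lectin of KCs, stood at 1.06%, Timd4 at 8.21% and Vsig4 at 6.55%. Without replicate 1 the values were 96.4% for Cd5l, 0.844% for Clec4f, 3.16% for Timd4 and 4.73% for Vsig4. Marco was at 281% in replicate 1 and at 3.09% and 6.04% in the other 2 libraries.

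**Figure D3:**
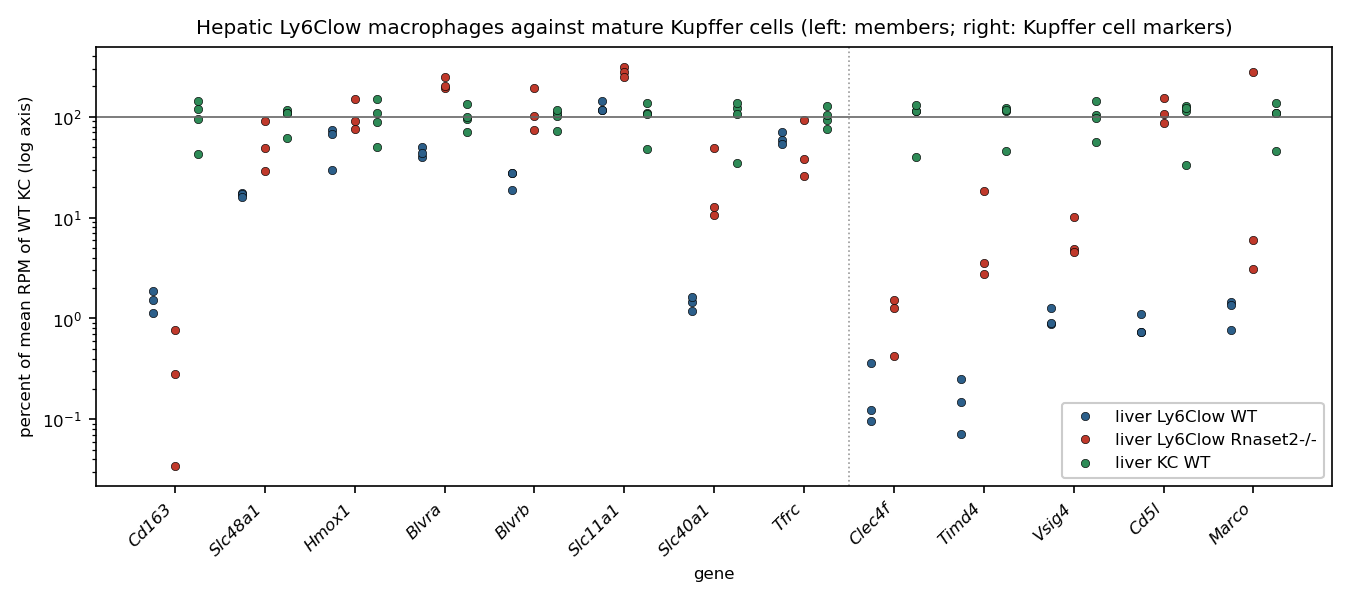
RPM of the 8 tested genes (left of the dotted line) and of 5 KC markers (right) in each hepatic Ly6Clow library of either genotype and each KC library, as a percent of the KC mean, on a logarithmic axis with a line at 100%. Rnaset2-/- libraries (red) lie between 10.6% and 49.2% for Slc40a1 and under 1% for Cd163, and wild-type libraries (blue) between 1.18% and 1.65% for Slc40a1.

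The order of the 9 groups differed between genes. Mean RPM was highest in KCs for Slc40a1 (1379 ± 621, SD, n = 4), Cd163 (458 ± 197), Slc48a1 (218 ± 56.5) and Tfrc (37.6 ± 8.28). It was highest in hepatic Rnaset2-/- Ly6Clow macrophages for Hmox1 (1076 ± 399.7, SD, n = 3), Slc11a1 (2511 ± 294), Blvra (124 ± 17.4) and Blvrb (264 ± 136). The library ranges of the first and second group overlapped for Hmox1, Slc40a1, Slc48a1 and Blvrb, and not for Cd163, Slc11a1, Blvra and Tfrc, of which Tfrc overlapped after scaling. Further down, most neighbours overlapped. Slc40a1 separated at the lower end, where wild-type hepatic Ly6Chi (3.05 ± 1.78) lay below wild-type hepatic Ly6Clow (19.7 ± 3.22), and that group below every group that remained. From the lowest to the highest group mean, the level rose 452-fold for Slc40a1 and 446-fold for Cd163, and between 3.69-fold and 11.9-fold for the other 6 tested genes. RPM of different genes were not compared with each other, since the length and efficiency of the amplified targets differ.

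The wider pathway was described with 46 further genes of heme and iron handling, of which 41 were in the table. In hepatic Ly6Clow macrophages 14 of 32 tested genes rose and 4 fell with RNase T2 deficiency, against 20.2% and 22.5% of all tested genes, with a median log2 fold change of 0.51. In splenic Ly6Clow macrophages 7 of 33 rose (against 4.05%) and the other 26 were not called (4.3% lower over all genes), with a median of 0.41. In splenic Ly6Chi cells 9 of 35 rose and 2 fell, against 9.77% and 12.5% (median 0.06), and in hepatic Ly6Chi cells 9 of 36 rose and 2 fell, against 15.7% and 14.9% (median 0.36). The medians over all tested genes were 0.01. The calls held in each alternative that gave a value for 13 of the 18 genes in hepatic Ly6Clow, 6 of 11 in hepatic Ly6Chi, 3 of 11 in splenic Ly6Chi and 2 of 7 in splenic Ly6Clow cells, the last being Cp and Spic. Heme synthesis, with 7 genes tested in each subset, added 1 of the risen genes in splenic Ly6Clow and 2 in each of the other subsets.

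Spic encodes the transcription factor that red pulp macrophages need, and with Cp it rose in the Ly6Clow subsets of both organs. The list of 6 red pulp genes (Spic, Vcam1, Cd163, Hmox1, Adgre1 and Treml4) did not move as 1. In splenic Ly6Clow cells 3 rose and 1 fell, and in hepatic Ly6Clow cells 2 rose and 1 fell, Cd163 in both. Among wild-type cells of the liver, Spic was called higher in KCs than in Ly6Clow macrophages. Spic was 8.78 to 13.7 RPM in wild-type and 48.0 to 132 RPM in Rnaset2-/- splenic Ly6Clow libraries (log2 fold change 2.49, SE 0.32, adjusted p = 0.00407). In hepatic Ly6Clow libraries it was 12.9 to 14.3 RPM and 62.6 to 203 RPM (2.92, SE 0.36, adjusted p = 0.000495). It was not called in the Ly6Chi subsets, at 0.16 (SE 0.22, adjusted p = 0.599) in the spleen and 0.03 (SE 0.27, adjusted p = 0.947) in the liver. Cp encodes ceruloplasmin, the ferroxidase that works with ferroportin. It was 1.61 to 2.39 RPM in wild-type and 24.1 to 33.3 RPM in Rnaset2-/- splenic Ly6Clow libraries (3.31, SE 0.19, adjusted p = 7.83e-05), and 7.32 to 11.8 RPM and 81.4 to 106 RPM in hepatic ones (3.16, SE 0.20, adjusted p = 2.77e-05). For both genes no Rnaset2-/- Ly6Clow library overlapped a wild-type library. Cp rose in splenic Ly6Chi cells as well (1.39, SE 0.23), and in hepatic Ly6Chi cells it was not called (0.92, SE 0.38).

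Among the other called genes of at least 10 RPM without overlap, some of the largest changes fell on genes that other cells also make. Lcn2 (3.49, SE 0.85, adjusted p = 0.0399) and Ltf (2.97, SE 0.78, adjusted p = 0.0491) rose in splenic Ly6Clow cells, and Ltf rose in splenic Ly6Chi cells (1.07, SE 0.24, adjusted p = 0.00660). Lcn2 binds bacterial siderophores and Ltf binds iron, and both are granule genes of the neutrophil list, whose sum in splenic Ly6Clow libraries was 1121 to 2538 RPM in wild-type and 3621 to 43080 RPM in Rnaset2-/- mice. In splenic Ly6Chi libraries the list summed to 31960 to 34250 RPM in wild-type and 34950 to 60770 RPM in Rnaset2-/- mice. The part of neutrophil transcripts in these 2 genes was not tested. Both calls in Ly6Clow cells were lost without Rnaset2-/- replicate 2, without any 1 wild-type library and without the filter on low values, and that of Ltf also without scaling. Alas1, the first enzyme of heme synthesis, rose in splenic Ly6Chi cells from 78.8 to 90.8 RPM in wild-type to 138 to 193 RPM (1.10, SE 0.13, adjusted p = 0.000180). In a single fit of all libraries the Ly6Chi calls of Alas1 (adjusted p = 0.0908) and Ltf (adjusted p = 0.470) were lost.

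In the liver, Slc25a28, a mitochondrial iron importer, rose in Ly6Chi cells from 3.32 to 9.01 RPM in wild-type to 47.9 to 77.5 RPM (3.18, SE 0.33, adjusted p = 0.000827). Slc39a8, a metal importer, rose there as well (2.37, SE 0.56, adjusted p = 0.0167), at 5.53 to 38.5 RPM against 1.88 to 2.59 RPM. Its call was lost without any 1 of 4 of the 6 libraries. Hp, which encodes haptoglobin, fell in hepatic Ly6Clow cells from 48.0 to 59.5 RPM to 3.06 to 24.9 RPM (-2.65, SE 0.59, adjusted p = 0.00724). Hp is also on the hepatocyte list. That list summed to 96.85 to 180.5 RPM in wild-type and 18.05 to 120.6 RPM in Rnaset2-/- hepatic Ly6Clow libraries, and 2 of its 7 tested genes fell. The part of hepatocyte RNA in the fall of Hp was not tested. In the other subsets Hp rose, by 0.93 in splenic Ly6Chi, 1.29 in splenic Ly6Clow and 0.75 in hepatic Ly6Chi cells, calls that were each lost in 1 to 5 alternatives (adjusted p up to 0.170). Slc11a2, which encodes the iron importer DMT1, rose in hepatic Ly6Clow (2.21, SE 0.17), hepatic Ly6Chi (0.98, SE 0.22) and splenic Ly6Clow cells (0.73, SE 0.19), and was named after its values were seen, as were the changes of Hp outside hepatic Ly6Clow cells and of Cp in Ly6Chi cells. Its hepatic Ly6Clow call held in all 14 alternatives, and its calls in hepatic Ly6Chi and splenic Ly6Clow cells were lost in 3 of 14 and 8 of 15. Hmox2, the constitutive heme oxygenase, rose in hepatic Ly6Clow cells (1.05, SE 0.27, adjusted p = 0.0153), a call lost without wild-type replicate 1 or 3 (adjusted p up to 0.0620). In hepatic Ly6Chi cells Hmox2 gave -0.67 (SE 0.24, adjusted p = 0.0669) and was called as lower in 4 of 14 alternatives, without wild-type replicate 2 or Rnaset2-/- replicate 1 among them.

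Of the pair of iron regulatory proteins that bind the hairpins printed above, Ireb2 rose in hepatic Ly6Chi (1.49, SE 0.40, adjusted p = 0.0250) and Ly6Clow macrophages (1.02, SE 0.33, adjusted p = 0.0360). The first call was lost without any 1 of 4 libraries (adjusted p up to 0.0860), and the second without any 1 of 4 libraries, without the filter on low values and in edgeR (adjusted p up to 0.107). Aco1, named after its values were seen, rose in hepatic Ly6Clow cells (1.47, SE 0.20). In the spleen Ireb2 gave -0.17 (SE 0.16) in Ly6Chi and 0.07 (SE 0.15) in Ly6Clow cells and was not called.

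BACH1 and NRF2 (Nfe2l2) act on the antioxidant elements of Hmox1, Slc40a1, Blvrb and the ferritin genes, BACH1 as the heme-sensitive repressor and NRF2 as the activator. Both fell in hepatic Ly6Clow macrophages. Bach1 was 102 to 124 RPM in wild-type and 34.5 to 59.5 RPM in Rnaset2-/- libraries (-1.35, SE 0.20, adjusted p = 0.00114), and Nfe2l2 was 253 to 312 RPM and 92.4 to 156 RPM (-1.20, SE 0.21, adjusted p = 0.00241). In hepatic Ly6Chi cells Nfe2l2 fell (-1.46, SE 0.17, adjusted p = 0.00121), as did Mafk, which encodes a small MAF partner of both factors (-1.65, SE 0.17, adjusted p = 0.000827), and Bach1 did not pass (-0.83, SE 0.31, adjusted p = 0.0762). In the spleen Nfe2l2 rose in Ly6Chi cells (0.62, SE 0.12, adjusted p = 0.00245), a call lost in a single fit of all libraries (adjusted p = 0.0764) and, by falling under the 1.5-fold threshold, without scaling (0.51) and without Rnaset2-/- replicate 2 (0.51), and in Ly6Clow cells it gave -0.37 (SE 0.28, adjusted p = 0.399) and Bach1 0.17 (SE 0.30, adjusted p = 0.733). Nfe2l2, Bach1 and Mafk moved in the liver beside the immediate early genes, of which 11 of 12 fell in Ly6Chi and 12 of 12 in Ly6Clow cells, and the part of that difference was not tested. In splenic Ly6Chi cells, where Nfe2l2 rose, 8 of 12 immediate early genes fell, and their part was not tested either.

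The other target genes of NRF2 and BACH1 were split. Of 10 listed, 9 were in the table and tested. In splenic Ly6Clow cells 4 rose (Gclm, Txnrd1, Srxn1 and Slc7a11, with log2 fold changes of 0.79 to 1.53) and the other 5 were not called, with a median over the list of 0.79, where 4.05% of all genes were called as higher. None of these 4 calls held in every alternative (each was lost in 2 to 8 of 15). In hepatic Ly6Clow cells 4 rose (Gclm, Txnrd1, Srxn1 and G6pdx, 0.60 to 1.85) and 4 fell (Nqo1, Gclc, Slc7a11 and Gsr, -2.88 to -0.61), with a median of -0.48, against 20.2% and 22.5% of all genes. The calls of G6pdx, Nqo1 and Gclc were lost in 4 to 6 of 14 alternatives, and the other 5 held in all. Slc7a11, the cystine importer, thus rose in the spleen and fell in the liver, where it was 15.0 to 16.3 RPM in wild-type and 0.311 to 4.31 RPM in Rnaset2-/- libraries. Splenic Ly6Chi cells had 3 higher (G6pdx, Gclm and Pir, median 0.34) against 9.77% of all genes, and hepatic Ly6Chi cells 2 lower (Gclc and Gsr, median 0.26) against 14.9%. Of these 5 calls, those of Pir (lost in 9 of 14 alternatives) and Gclc (8 of 14) did not hold throughout. G6pdx, which supplies NADPH, rose in splenic Ly6Chi cells by 1.05 (SE 0.14, adjusted p = 0.000268) and Gclm, a subunit of the enzyme that makes glutathione, by 0.98 (SE 0.15, adjusted p = 0.000659). The called genes of this list outside the largest changes were named after their values were seen.

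**Figure D4:**
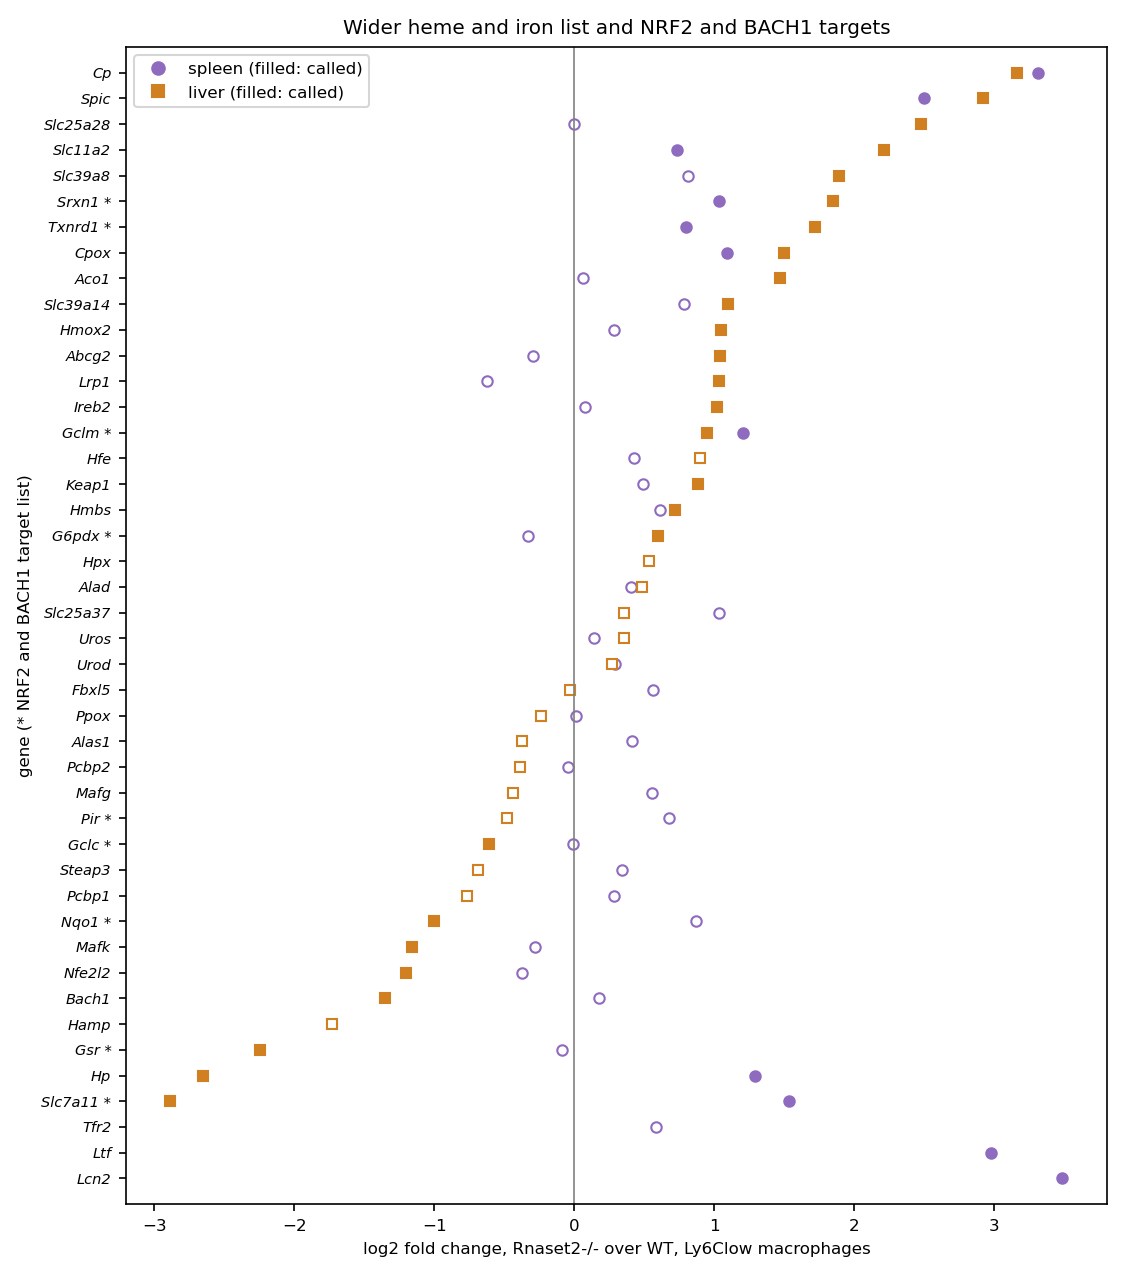
Log2 fold change (Rnaset2-/- over wild-type) in splenic (circles) and hepatic (squares) Ly6Clow macrophages for the genes of the wider heme and iron list and the NRF2 and BACH1 target list that were tested in either organ, with filled symbols for called genes. Cp and Spic lie between 2.49 and 3.31 in both organs, and Slc7a11 lies at 1.53 in the spleen and -2.88 in the liver.

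Genes whose level followed each of the 8 most closely over the 29 libraries were sought by Pearson correlation of log2(scaled RPM + 1) among 9669 genes that reached 10 RPM in at least 1 group. The libraries share groups, organs and preparation, so the values describe this set of samples. For Slc40a1 they were C6 (r = 0.93), Actn1 (0.91) and Dip2c (0.91), and for Cd163 Ank2 (0.93), Arvcf (0.90) and Ppp1r9a (0.90). For Blvrb they were Dst (0.94), C1qb (0.93) and Fblim1 (0.92), and for Blvra Slc7a7 (0.95), Pla2g15 (0.91) and Mrpl3 (0.91). Hmox1 was most like Vav2 (0.85), Basp1 (0.85) and Abcg1 (0.85), Slc48a1 most like Wdr18 (0.88), Tgm1 (0.86) and Slc1a3 (0.85), and Slc11a1 most like Evl (0.90), P4ha1 (0.89) and Adam9 (0.88). Tfrc had the loosest matches, Nme4 (0.75), Ggt5 (0.70) and Pcbd1 (0.70). With Spearman correlation 8 of these 24 genes remained among the closest 3, and none of those named for Cd163 or Blvra did. For Cd163 the closest were then Rnf150 (0.77), Ei24 (0.73) and Ptgis (0.73).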

How the data were processed

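Sorted macrophages were profiled by targeted RNA-seq (Ion AmpliSeq Transcriptome Mouse, sequenced on an Ion Proton), in which 1 amplicon stands for a gene, so levels were compared between libraries and not between genes. The authors deposited 1 table of RPM (reads of a gene scaled to a common total per library), counted with the AmpliSeqRNA plug-in, and the labels name mm10 as the genome build. The RPM steps gave whole reads within 0.1 reads for 100.0% of values, so depth is known, and floors and intervals from it cover counting error only. Libraries were grouped by their labels. Library factors by relative log expression, set over the libraries of each comparison, were applied to RPM, and limma 3.58.1 (R 4.3.3, two-sided, with a mean-variance trend) was run on log2(scaled RPM + 1) after genes were kept that reached 1 RPM in 3 or more of these libraries. Fold changes on this scale understate those of low genes. A call needs more than 1.5-fold and a Benjamini-Hochberg adjusted p below 0.05 over all tested genes.

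The members and lists were chosen with earlier results of these data known. The text names all members and, per genotype comparison, up to 4 genes of the wider lists with the largest called change, at least 10 RPM and no overlap between libraries, besides Spic, Bach1, Nfe2l2, Hmox2 and Ireb2. Alternatives were an added value of 0.1, no filter on low values, no fold threshold, no scaling, the replicate number as a block, 1 joint fit over all libraries, edgeR 4.0.16 and DESeq2 1.42.0 on the recovered reads, and leaving out each library. The scripts were tested on simulated data. Some genes, those of RNase T2 among them, were not analysed here.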

Additional observations from a re-analysis of the deposited data

Results flagged for a closer look

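In groups of 4 libraries, 18 combinations of gene and group were tested for a library far from the others, and 4 stood out by the gap to the nearest library as a share of the group's range. These were Slc40a1 (0.934) and Blvra (0.865) in splenic Rnaset2-/- Ly6Clow macrophages, each by a high value in replicate 1, and Slc48a1 (0.851) and Fth1 (0.888) in KCs, by a low value in replicate 3 and a value of 0.749 RPM in replicate 2. Chance marks about 1 in 20 groups in this way. Replicate 1 of the splenic group is also the library with the most neutrophil and erythroid transcripts, and KC replicate 3 the one with the most hepatocyte transcripts, and their part in these values was not tested.

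The effect of genotype differed between liver and spleen, by the interaction term, for Slc40a1 in Ly6Chi (3.02) and Ly6Clow macrophages (3.18) and for Slc11a1 (1.24) and Blvra (1.26) in Ly6Clow macrophages, each larger in the liver on the log2 scale. All 3 hepatic Rnaset2-/- libraries lay above all 3 wild-type libraries in each of these cases. In the liver, genotype and the share of male and female cells cannot be told apart.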

How the results depend on the processing

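Of the 10 comparisons, those of Rnaset2-/- with wild-type hepatic Ly6Clow cells (6 members called), of KCs with wild-type (5) and Rnaset2-/- hepatic Ly6Clow cells (4) and the Ly6Clow interaction (3) kept their count of called members within 1.5 times under every alternative. Leaving out 1 library gave 1 to 2 in splenic Ly6Chi, 2 to 4 in splenic Ly6Clow and 1 to 2 in hepatic Ly6Chi cells, 1 to 3 between the wild-type hepatic subsets and 1 to 3 in the Ly6Chi interaction. Without the fold threshold 2 members were called in splenic Ly6Chi cells. In hepatic Ly6Chi cells 1 was called with an added value of 0.1, without the filter, without scaling, with the replicate block and in edgeR. A single fit of all libraries called 1 between the wild-type subsets of either organ, the filter's removal 1 between those of the liver, and unscaled RPM 3 in the Ly6Chi interaction. The causes were not tested.

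Signs turned in 30 combinations of difference and alternative, all of differences that were not called. Without scaling these were Tfrc in hepatic Ly6Chi cells (0.14), Slc40a1 (-0.060) and Slc48a1 (-0.090) between the wild-type splenic subsets and Hmox1 in the Ly6Chi interaction (0.078), with an added value of 0.1 Cd163 in the Ly6Clow interaction (-0.16), and with the replicate block Hmox1 in KCs against wild-type Ly6Clow cells (-0.024). Leaving out 1 library gave -0.46 to 0.16 for Blvrb, -0.14 to 0.021 for Hmox1, -0.014 to 0.41 for Slc40a1 and -0.054 to 0.31 for Spic between genotypes in splenic Ly6Chi cells, -0.021 to 0.16 for Ireb2 and -0.020 to 0.67 for Slc40a1 in splenic Ly6Clow cells, -0.24 to 0.33 for Slc11a1, -0.17 to 0.32 for Spic and -0.33 to 0.077 for Tfrc in hepatic Ly6Chi cells. It gave -0.18 to 0.027 for Blvra and -0.034 to 0.18 for Slc48a1 between the wild-type splenic subsets, -0.41 to 0.24 for Hmox1 between the hepatic ones, -0.27 to 0.53 for Hmox1 and -0.022 to 0.23 for Tfrc between KCs and wild-type Ly6Clow cells, -0.76 to 0.044 for Hmox1 and -0.15 to 0.49 for Slc48a1 in the Ly6Chi interaction, -0.15 to 0.84 for Cd163 in the Ly6Clow interaction.

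Same-numbered replicates did not deviate together throughout (r of deviations from -0.19 to 0.59), so the numbers were not taken as pairs. The highest r was that of replicate 1 between the wild-type hepatic subsets, where replicates 2 and 3 gave -0.12 and -0.17. Y-linked genes also split by replicate number in both of these subsets. Whether their same-numbered libraries share animals is not labelled, and their main test uses no pairing. With the replicate block, Blvra in splenic Ly6Clow and Cd163 in hepatic Ly6Chi cells lost their calls, and Hmox1 and Blvrb in Rnaset2-/- Ly6Clow cells against KCs gained them.

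Without scaling, the share of higher calls over all genes moved from 44.0% to 31.2% in splenic Ly6Chi, from 51.2% to 74.6% in hepatic Ly6Chi, from 41.1% to 29.8% and 52.0% to 65.4% between the wild-type subsets of spleen and liver, from 52.0% to 79.8% in KCs against wild-type Ly6Clow cells, from 42.5% to 15.9% in Rnaset2-/- Ly6Clow cells against KCs and from 52.4% to 78.9% in the Ly6Chi interaction, with shifts of the median of all genes to between -0.56 and 0.55. Calls over all genes in splenic Ly6Clow cells, 417 higher and 443 lower, were 907 and 693 in DESeq2 and 250 and 265 without the filter. In splenic Ly6Chi cells 1016 and 1295 became 2052 and 1910 without the fold threshold and 456 and 687 in a single fit. In hepatic Ly6Chi cells 1717 and 1634 became 2557 and 3073 in a single fit, and 1451 and 2079 between the wild-type splenic subsets became 2635 and 2776 without the fold threshold. Depth limits hepatic Cd163, which rests on few reads.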

Other observations

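Genes of the wider heme and iron list also differed between the normal cell types. KCs had 14 of 36 tested genes higher and 6 lower than wild-type hepatic Ly6Clow macrophages, against 26.0% and 24.0% of all genes (median log2 difference 0.36), with the heme binder Hpx and the transferrin receptor paralog Tfr2 among the higher and Bach1, Nfe2l2 and Mafk among the lower ones. Hpx is also a hepatocyte marker, and 6 of 7 tested hepatocyte markers were higher in KCs. Immediate early genes were lower in KCs, 12 of 12. The part of these differences was not tested. Between wild-type Ly6Clow and Ly6Chi macrophages, 4 of 33 were higher and 7 lower in the spleen, against 13.8% and 19.8% of all genes, and 1 of 35 higher and 5 lower in the liver, against 5.24% and 4.84%. Alas1, Hp, Lcn2, Ltf and Steap3 were lower in the Ly6Clow subset of both organs, where 12 of 12 tested neutrophil markers in the spleen and 10 of 11 in the liver were lower too, and Hfe was the gene higher in both. The genes named here were chosen after their values were seen.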
